A study of Canis lupus familiaris with 10 samples.

Results

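The Toll-like receptors (TLRs) and their adaptor MYD88 were examined in canine cutaneous histiocytoma (CCH), a benign skin tumor of dogs that is derived from Langerhans cells and usually regresses. Every panel gene whose symbol is TLR followed by digits was taken, TLR1 to TLR10, together with MYD88, which gave 11 of the 800 genes of the nCounter Canine IO Panel. The rule uses symbols and no measured value. The panel hybridizes total RNA to color-coded probes that are counted one by one without amplification. The comparison addressed was early against late CCH: 5 tumors of group 1 of the Cockerell & Slauson scheme, called early, and 5 tumors of group 3, described in the labels as lymphocyte enriched, called late. All tumors were formalin-fixed and paraffin-embedded (FFPE), not pooled and of different dogs, and the labels give no treatment. The early dogs were a male neutered French Bulldog of 0.5 years, a male Goldendoodle of 0.75 years, a Terrier with no age or sex stated, a male neutered Boxer of 5 years and a female French Bulldog of 3 years, numbered 1 to 5 in that order. The late dogs were a male neutered Rottweiler of 1.5 years, a female Beagle of 9 years, a male Pug of 2.5 years, a male Bullterrier of 2 years and a male Jack Russell Terrier of 7 years.

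TLRs are receptors of the innate immune system that recognize molecules shared by many microbes. One group sits on the cell surface and binds lipopeptides, lipopolysaccharide or flagellin, and another sits in endosomes and binds nucleic acids. All but TLR3 can signal through MYD88, which recruits IRAK kinases and leads to nuclear factor kappa B (NF-κB) and interferon regulatory factor activity. Langerhans cells, other dendritic cells, macrophages and B cells each carry their own combination of these receptors.

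Values are given as normalized counts, the deposited counts after scaling to positive controls and housekeeping genes. Recovered raw counts summed to 484696 to 823763 per early and 945399 to 1253083 per late tumor, and the background (mean plus 2 SD of the negative probes) was 21.8 to 38.2 normalized counts in early and 19.2 to 26.9 in late tumors. The ratio of the brightest positive control to the next was 2.09 to 2.17 in early and 2.72 to 2.84 in late tumors, and the study's sample list places the early and the late tumors on different cartridges and in different extraction batches, so that these and stage cannot be told apart. The share of RNA fragments over 200 nucleotides (DV200) was 64.5% to 71.2% in early and 71.2% to 75.8% in late tumors by the labels, and the label of late 5 differs from the study's own RNA quality table, which touches each result with DV200 as a covariate. All 11 T cell markers tested, 7 of 10 B cell markers and 3 of 9 macrophage markers were higher in late CCH (Benjamini-Hochberg, BH, adjusted limma p at most 0.05), and none was higher in early CCH. Of all 761 genes tested, 27.3% were higher in late CCH, a share close to that of the macrophage list. The part of these cell types in the results on the TLRs was not tested. The summed level of the T cell list was 625 to 11617 in early and 17648 to 30531 in late tumors, that of the macrophage list 3720 to 10094 and 8545 to 15193, and that of the B cell list 2494 to 3784 and 3761 to 16475. Of the Langerhans cell markers, CD207 (langerin) was above background in 1 of 5 early and 1 of 5 late tumors and CD1B in none, while FLT3 and FCER1A, found on dendritic cells, were above background in all 10 and higher in early CCH. CD83 and CCR7, found on mature dendritic cells, were higher in late CCH (log2 fold changes, early minus late, of -1.30 and -1.68, BH adjusted limma p 0.0109 and 0.0170), and the other 6 tested markers of that list did not pass. Of the other lists, 1 of 2 plasmacytoid dendritic cell markers tested (SPIB) was higher in late CCH, and none of 6 neutrophil and none of 7 keratinocyte markers passed in either direction. In whole sections, fewer cells of a type and less RNA per cell cannot be told apart.

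TLR10 was higher in early CCH by 3.93-fold, TLR6 was higher in early CCH by 1.73-fold and TLR8 was higher in late CCH by 2.85-fold, each past the BH threshold. The other 7 genes tested (TLR1, TLR2, TLR3, TLR4, TLR7, TLR9 and MYD88) did not pass it, and TLR5 was not above background in any tumor. Of 761 panel genes with a mean of at least 20, which include 10 of the 11 genes examined here, 35.7% passed the BH threshold, 8.41% with the higher level in early and 27.3% with the higher level in late CCH. The 3 of 10 receptors and adaptor that passed, 2 higher in early and 1 in late, are therefore a share close to that of the panel. Stricter thresholds taken from the study ask for a 2-fold change and an adjusted p of 0.05 or less after Benjamini-Yekutieli (BY) correction. They were applied here to limma, not to the study's own count model, and TLR10 was called, as were 11.2% of the tested genes. The median log2 fold change (early minus late) was 0.24 over the 10 genes and -0.18 over all tested genes.

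**Figure D1:**
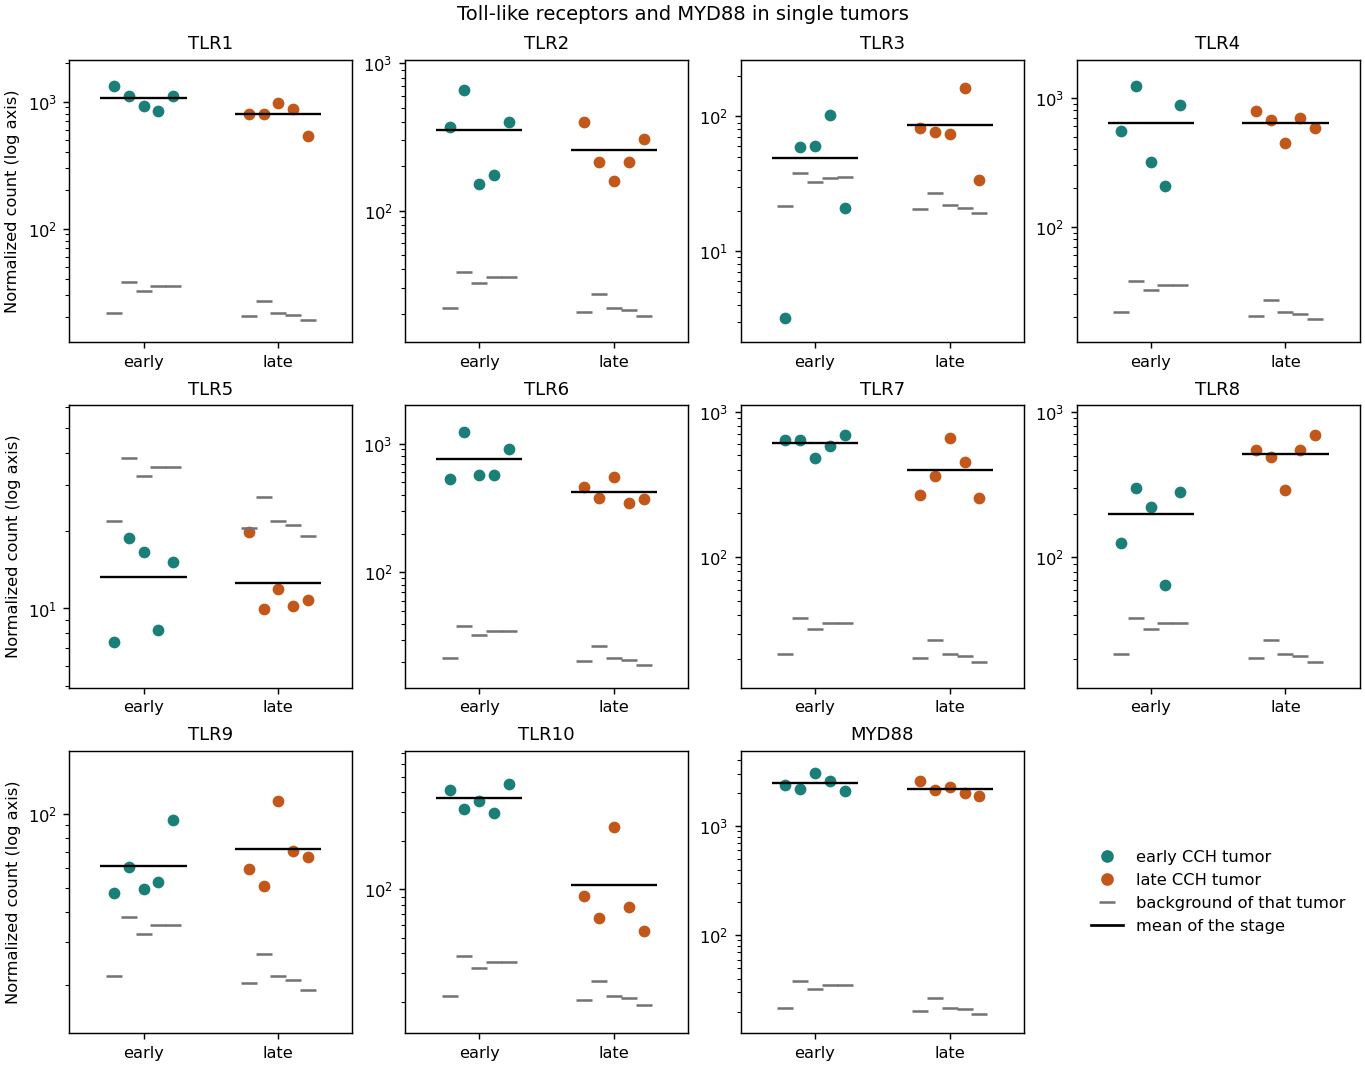
Normalized counts (log axis, scaled separately in each panel) of TLR1 to TLR10 and MYD88 in 5 early and 5 late tumors, shown as points in the order of their numbers. Horizontal lines are stage means and grey dashes the background of each tumor. All early tumors lie above all late tumors for TLR10, all TLR5 points lie below the dashes, and late 3 stands above the other late tumors for TLR10 and TLR7.

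The first group of receptors binds bacterial and fungal lipopeptides. TLR2 does so as a dimer with TLR1 or TLR6, and TLR10 is a close relative of TLR1 and TLR6 whose ligands are less settled and which is known from B cells and dendritic cells. In the RefSeq table of the dog genome (assembly UU_Cfam_GSD_1.0), in which 10 of the 11 genes were found by symbol, TLR1 and TLR10 are direct neighbors, and TLR6 was the gene not found. The probe sequences were not used here, so it was not examined how far the probes of these related genes could share transcripts.

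TLR10 had 416, 314, 354, 297 and 453 normalized counts in early tumors 1 to 5. It had 90.5, 66.4, 244, 78.0 and 55.1 in late tumors 1 to 5. The lowest early tumor thus lay above the highest late tumor, and late 3 stood far above the other late tumors. The means were 367 ± 66.5 in early and 107 ± 77.8 in late CCH (SD, n = 5 each), a log2 fold change of 1.98 (SE 0.37, 95% interval 1.16 to 2.79). The adjusted p from limma was 0.00342 by BH and 0.0247 by BY, and TLR10 ranked 60 of 761 genes by p. Groups that did not overlap, with early above late, were found for 5.39% of all tested genes, and with late above early for 19.2%; among the receptors and MYD88, TLR10 was the only such gene. Its log2 fold change was higher than that of 99.1% of the tested genes. With the mean level of the macrophage list as a covariate, it was 1.63 with a BH adjusted limma p of 0.0604. The BH call held without each single tumor in turn, while the BY call was lost without early 1, early 5, late 1, late 2, late 4 or late 5.

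The 51 recovered counts behind the lowest TLR10 value, that of late 5, corresponded to an exact 95% Poisson interval of 41.0 to 72.4 normalized counts. The 226 recovered counts of late 3 corresponded to 213 to 278 normalized counts. These intervals cover counting error only and say nothing of the spread between dogs. Late 3 also had the highest sum of B cell markers (16475) and of plasmacytoid dendritic cell markers (210). The latter sum rests on IL3RA and SPIB only, and by mean log2 level late 4 (5.78) lay above late 3 (5.66). Among the late tumors, late 3 had the highest sum of Langerhans and dendritic cell markers (4973, against at most 3155). It had the lowest sums of T cell (17648) and macrophage markers (8545) among them.

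TLR6 had 530, 1235, 569, 568 and 910 normalized counts in early tumors 1 to 5 and 461, 380, 553, 346 and 372 in late tumors 1 to 5. Early 2 and early 5 were the highest, and the stages overlapped because late 3 (553) lay above early 1 (530). The means were 762 ± 306 in early and 422 ± 84.6 in late CCH (SD, n = 5 each), with a log2 fold change of 0.79 (SE 0.26) and adjusted limma p of 0.0383 by BH and 0.276 by BY. The BH call was lost in 6 of the 10 fits that left out a tumor (without early 2, early 5, late 1, late 2, late 4 or late 5), which gave log2 fold changes of 0.59 to 0.90. It was also lost with DV200 as a covariate (log2 fold change 0.65, BH adjusted limma p 0.326).

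TLR1 had 1329, 1114, 922, 842 and 1108 normalized counts in early tumors 1 to 5 and 802, 803, 976, 881 and 539 in late tumors 1 to 5. The 3 highest values were early and the lowest was late 5, with overlap in between. The log2 fold change was 0.42 (SE 0.19, BH adjusted limma p 0.117).

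TLR2, the shared partner of this group, had 371, 658, 152, 175 and 398 normalized counts in early tumors and 397, 215, 160, 214 and 307 in late tumors. Its early values spread on both sides of the late ones. The log2 fold change was 0.31 (SE 0.42, BH adjusted limma p 0.599), with a 95% interval from -0.62 to 1.23 that leaves room for more than a 2-fold difference toward early CCH. It was 0.029 without early 2 and 0.55 without early 3.

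TLR4 recognizes lipopolysaccharide of Gram-negative bacteria together with LY96 (MD-2) and CD14. It had 553, 1225, 319, 208 and 883 normalized counts in early tumors and 795, 675, 449, 700 and 583 in late tumors. The early tumors held both the highest and the lowest values, and the late tumors fell between them. The stage means were nearly equal, 638 ± 418 in early and 640 ± 131 in late CCH (SD, n = 5 each), and the log2 fold change was -0.26 (SE 0.44, BH adjusted limma p 0.674).

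TLR5 binds bacterial flagellin. Its values were 7.41 to 18.7 normalized counts in early and 9.95 to 19.8 in late tumors, from 5 to 16 recovered counts, and all lay below the background of their tumor. TLR5 was therefore not detectable at this depth and was not tested.

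The second group recognizes nucleic acids in endosomes. TLR7 and TLR8 bind single-stranded RNA and are direct neighbors in the same RefSeq table, TLR9 binds DNA with unmethylated CpG motifs, and TLR3 binds double-stranded RNA and signals through TICAM1 (TRIF) rather than MYD88. TLR7 and TLR9 are known from plasmacytoid dendritic cells and B cells, and TLR8 from monocytes and myeloid dendritic cells.

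TLR8 had 126, 299, 220, 64.2 and 282 normalized counts in early tumors 1 to 5. It had 542, 488, 290, 547 and 690 in late tumors 1 to 5. The only overlap was between late 3 (290), the lowest late tumor, and early 2 (299), the highest early one. The means were 198 ± 101 in early and 511 ± 145 in late CCH (SD, n = 5 each), a log2 fold change of -1.51 (SE 0.43, 95% interval -2.46 to -0.57) with adjusted limma p of 0.0200 by BH and 0.144 by BY. The BH call held without each single tumor in turn. With the macrophage list as a covariate the log2 fold change was -0.56 (BH adjusted limma p 0.328). With DV200 as a covariate it was -2.28 (BH adjusted limma p 0.0506). Under quantile normalization it was -0.96 (BH adjusted limma p 0.112), and in male dogs only -1.87 (BH adjusted limma p 0.0531).

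TLR7 had 640, 639, 477, 583 and 688 normalized counts in early tumors 1 to 5 and 268, 361, 657, 448 and 255 in late tumors 1 to 5. The early tumors were close to each other, and among the late tumors only late 3 reached their upper range. The means were 606 ± 80.7 in early and 398 ± 165 in late CCH (SD, n = 5 each). The log2 fold change of 0.69 (SE 0.26) had a BH adjusted limma p of 0.0640. Without late 3 it was 0.89 with a BH adjusted limma p of 0.0122. This was the only one of the 10 fits without a tumor in which TLR7 passed. It also passed in 5 of 16 other settings. With weights estimated for each tumor it was 0.75 (BH adjusted limma p 0.0389).

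TLR9 was low throughout, with 47.6, 61.1, 49.6, 52.7 and 94.7 normalized counts in early tumors and 59.5, 50.9, 113, 70.6 and 67.0 in late tumors. All 10 values lay above background, and early 5 and late 3 were the highest of their stages. The log2 fold change was -0.23 (SE 0.27, BH adjusted limma p 0.524), and it was -0.40 without early 5 and -0.057 without late 3.

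TLR3 had 3.17, 59.4, 60.6, 102 and 20.8 normalized counts in early tumors and 81.9, 76.3, 74.5, 163 and 33.5 in late tumors. It was above background in 3 of 5 early and 5 of 5 late tumors, and the value of early 1 rests on 3 recovered counts. The log2 fold change was -1.26 (SE 0.80, BH adjusted limma p 0.244), and it was -0.52 without early 1. With 10 rather than 1 added to each normalized count it was -0.90. With low values raised to a common background floor it was -0.48. The difference was not larger than the spread between tumors.

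MYD88, the shared adaptor, had the narrowest log2 range over the 10 tumors among the 10 genes tested. It had 2373, 2161, 3047, 2576 and 2113 normalized counts in early tumors and 2582, 2116, 2258, 1999 and 1899 in late tumors. The stages overlapped over most of their range, although early 3 stood highest. The means were 2454 ± 380 (SD, n = 5) and 2171 ± 266 (SD, n = 5), with a log2 fold change of 0.17 (SE 0.15, BH adjusted limma p 0.376) and a 95% interval of -0.15 to 0.49.

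**Figure D2:**
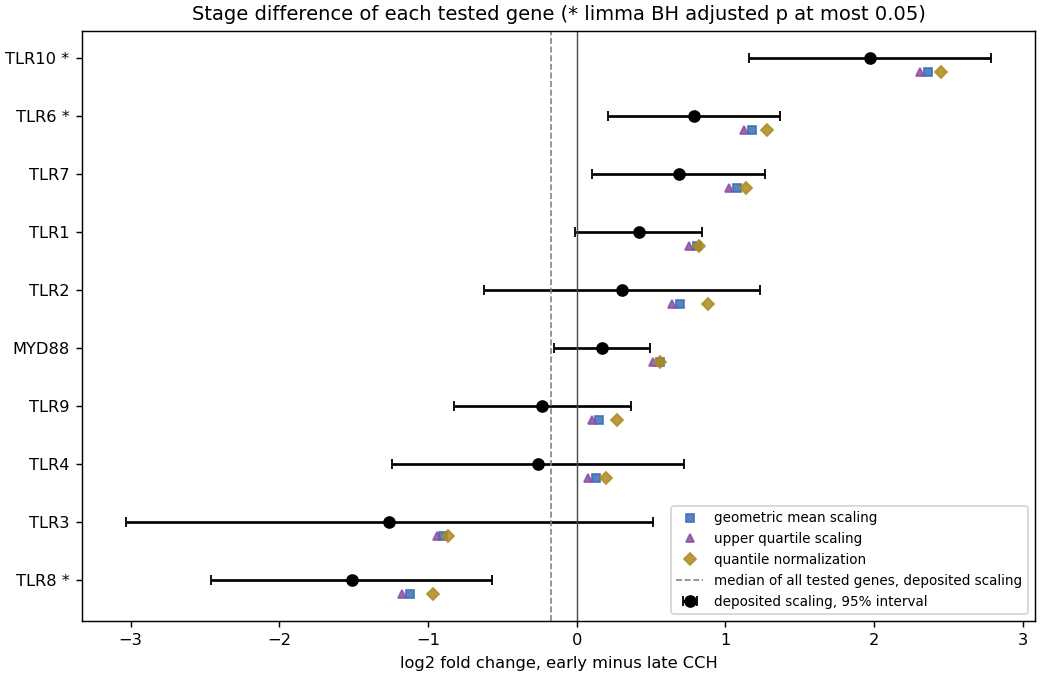
Log2 fold change (early minus late CCH) of the 10 tested genes with its 95% interval under the deposited scaling (black), and the value after 3 other scalings of the same data (colored symbols). The dashed line marks the median of all tested genes, -0.18, and stars mark TLR10, TLR6 and TLR8, the genes past the BH threshold. The other scalings moved all 10 genes toward early CCH.

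The signs of small changes depended on the scaling. The deposited scaling put the median of all tested genes at -0.18, while scaling to the geometric mean of the tested genes put it at 0.21, to the upper quartile at 0.16 and quantile normalization at 0.21. A single factor per tumor moves all genes nearly alike, so that under the geometric mean the distance of each gene to that median was nearly fixed. TLR10 lay 2.15 above it under the deposited scaling and 2.16 under the geometric mean, TLR6 0.96 and 0.97, TLR7 0.86 and 0.87, TLR1 0.59 and 0.60, and MYD88 0.35 and 0.36. TLR8 lay at -1.34 and -1.33 relative to the median. TLR4 (-0.086 and -0.077) and TLR9 (-0.056 and -0.053) lay close to the median. Quantile normalization, which is not a single factor, gave distances of 2.25 for TLR10, 1.08 for TLR6, 0.93 for TLR7, 0.68 for TLR2 (0.48 under the deposited scaling), -1.17 for TLR8, -0.0095 for TLR4 and 0.068 for TLR9. TLR4 and TLR9 turned to positive log2 fold changes under the geometric mean, upper quartile and quantile scalings. Under the geometric mean scaling 6 of the 10 genes passed the BH threshold (TLR1, TLR6, TLR7, TLR8, TLR10 and MYD88), while the calls over all 761 genes went from 272 to 344.

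Ratios of receptors within a tumor do not depend on that tumor's scaling. A set of 8 pairs was compared between stages with exact two-sided permutation tests of the stage labels. For these, 5 against 5 tumors allow no p below 0.00794. The pairs were chosen with earlier results of these data known. Their p-values, before and after adjustment, are therefore descriptive and do not hold their nominal error rate. The level of one gene cannot be set against that of another, because probes differ in efficiency, so only the change of a ratio is given. TLR7 relative to TLR9 had log2 ratios of 2.85 to 3.72 in early and 1.91 to 2.80 in late tumors, so that all early tumors lay above all late ones. The difference of 0.92 (1.89-fold) had an exact permutation p of 0.00794 (n = 5 and 5), or 0.0635 adjusted over the 8 pairs.

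TLR7 relative to TLR8 had log2 ratios of 2.34, 1.10, 1.11, 3.16 and 1.28 in early tumors 1 to 5. In late tumors 1 to 5 they were -1.01, -0.43, 1.18, -0.29 and -1.43. Late 3 lay among the early tumors, and the other 4 late tumors lay below all early ones. The difference of 2.20 on the log2 scale (4.58-fold) had an exact permutation p of 0.0238 (n = 5 and 5), or 0.0952 adjusted over the 8 pairs. No pair passed 0.05 after adjustment, and a lone pair at the smallest p that 5 against 5 tumors allow adjusts to 0.0635 over 8 pairs, so that a single separated pair could not pass. The other 6 pairs (TLR1 to TLR2, TLR6 to TLR2, TLR1 to TLR6, TLR4 to LY96, TLR4 to CD14 and TLR3 to MYD88) had exact permutation p of 0.103 to 0.817 (n = 5 and 5), and their stages overlapped.

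**Figure D3:**
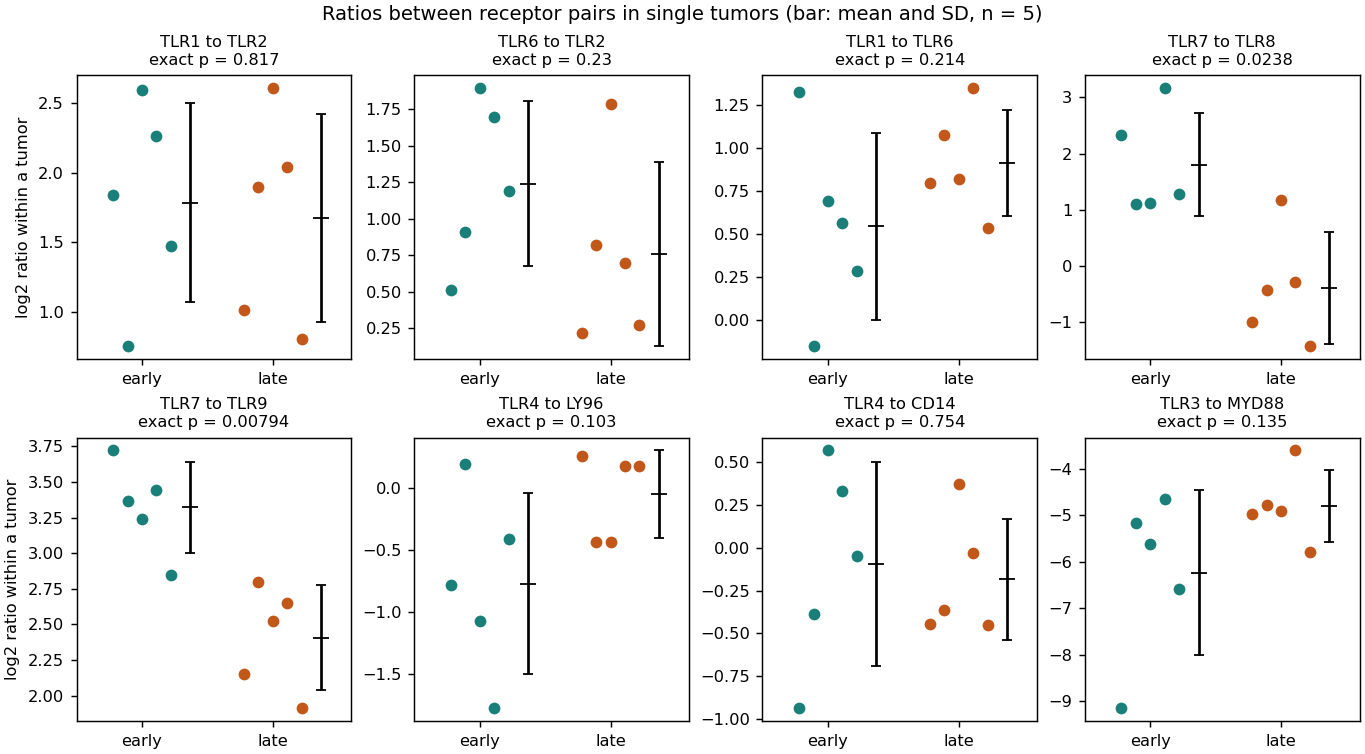
Log2 ratio of 2 genes within each tumor for the 8 pairs, with early and late tumors as points and the mean ± SD (n = 5) as bars; each panel has its own vertical axis. TLR7 to TLR9 separates the stages (exact p 0.00794 before and 0.0635 after adjustment), and in TLR7 to TLR8 late 3 lies among the early tumors.

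The single tumors differed in their combination of receptors. Late 3 was the highest late tumor for TLR1, TLR6, TLR7, TLR9 and TLR10 and the lowest late tumor for TLR2, TLR4 and TLR8. Early 2 was the highest early tumor for TLR2, TLR4, TLR6 and TLR8. After the mean of each stage was removed, the pairs among the 10 genes with the highest Pearson r over the 10 tumors were TLR2 with TLR4 (0.88), TLR4 with TLR8 (0.77), TLR7 with TLR10 (0.77) and TLR1 with TLR7 (0.72), and the lowest was TLR4 with MYD88 (-0.54). These are descriptions over 10 tumors, whose values share each tumor's scaling, depth and cell makeup.

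Among all tested genes, the closest to TLR10 in this measure were MEF2C (r 0.89), a transcription factor of B cells and myeloid cells, and BTK (0.89), a kinase of B cell receptor signaling, with lower Spearman rho of 0.71 and 0.66. TLR7 was closest to MEF2C as well (0.96). TLR2 was closest to CD14 (0.93), the lipopolysaccharide co-receptor, and IL31RA (0.93), and TLR8 to SERPING1 (0.93), the C1 inhibitor of complement, and PGR (0.91). TLR4 was closest to ATG7 (0.98), of autophagy, and ADAMTS2 (0.96), a procollagen protease. TLR1 was closest to TYROBP (0.93), a signaling adaptor of myeloid and natural killer cells, and CFI (0.89), of complement. TLR6 was closest to FCRL2 (0.89), and TLR9 to CIITA (0.90), the regulator of MHC class II genes, and POU2F2 (0.86), a B cell transcription factor, with Spearman rho of 0.68 and 0.58. The part of single tumors in these values was not tested. Each partner named here was picked for its high r among all tested genes. The r that such a pick would give for unrelated genes was not tested, so the partners are a description only. TLR3 was closest to TNFRSF4 (0.95) and IL12B (0.91), values that rest in part on levels below background, since IL12B was above it in 0 of 5 early and 2 of 5 late tumors. MYD88 was closest to ATG16L1 (0.89) and TNFSF8 (0.85).

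**Figure D4:**
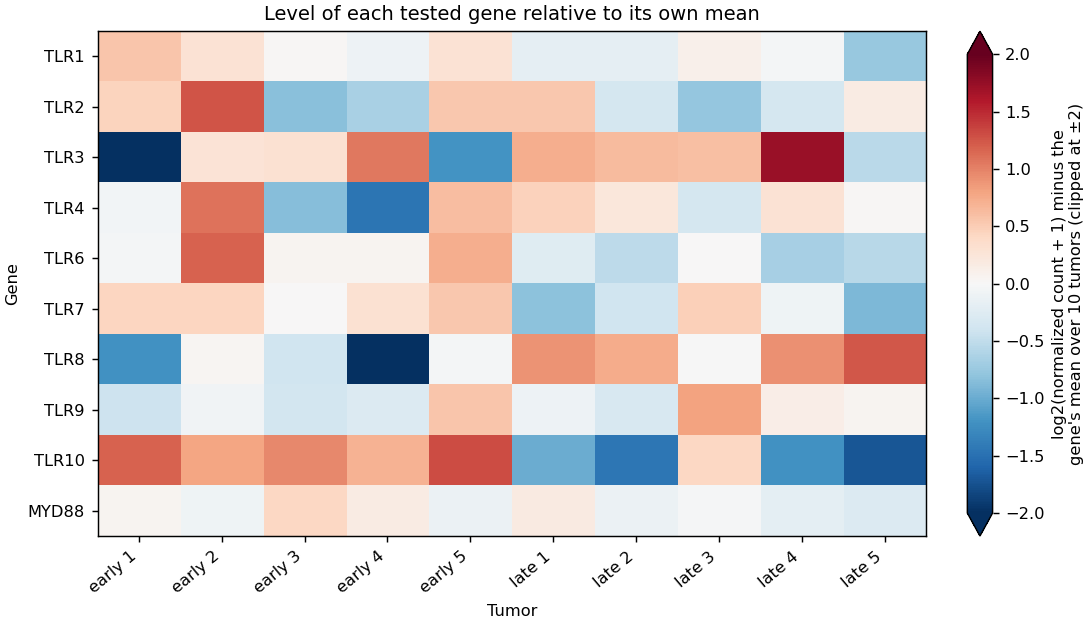
Level of each of the 10 tested genes in each tumor, as log2(normalized count + 1) minus the gene's own mean over the 10 tumors (colors clipped at ±2). TLR10 is red in all early tumors and in late 3, TLR8 is blue or near 0 in the early tumors and in late 3, and the palest row is MYD88.

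The genes that act with or after the TLRs, and other innate sensors, were counted in lists by their role. Of 66 such genes tested, 23 (34.8%) passed the BH threshold, against 35.7% of all tested genes: 5 were higher in early and 18 in late CCH. Their median log2 fold change was -0.11. Of the whole panel, 8.41% passed with the higher level in early CCH and 27.3% with the higher level in late tumors. These splits are those of the deposited scaling. Under geometric mean scaling, 193 of all tested genes were higher in early and 151 in late CCH, and 34 pathway genes passed. With DV200 as a covariate 4 pathway genes passed, and with the macrophage list 7.

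Among 8 co-receptors and adaptors tested, CD180 alone passed and 7 did not, while 35.7% of all tested genes passed. CD180 is a TLR-like surface protein of B cells and dendritic cells that lacks the signaling domain. It had means of 1111 ± 263 in early and 565 ± 172 in late tumors (SD, n = 5 each). The log2 fold change was 1.00 (BH adjusted limma p 0.0114). The stages did not overlap, as for 5.39% of all tested genes with early above late. The lowest value of this list was that of TICAM1, the adaptor of TLR3 (-0.37, BH adjusted limma p 0.131).

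Among 16 kinases, ubiquitin ligases and inhibitors, 1 was higher in early and 4 in late CCH, the latter again close to the share of the panel. IRAK4, the kinase that MYD88 recruits first, was higher in early CCH (log2 fold change 0.67, BH adjusted limma p 0.00771). It had 952 ± 166 (SD, n = 5) against 591 ± 39.1 (SD, n = 5). The stages did not overlap, as for 5.39% of all tested genes with early above late. SIGIRR, which restrains TLR and interleukin receptor signaling, was higher in late CCH (-1.57, BH adjusted limma p 0.00141), as were TNFAIP3 (A20), a ubiquitin-editing inhibitor of NF-κB (-1.03, 0.00330), and TRAF3, an adaptor of interferon induction (-1.61, 0.0241). BTK had the highest value of the list, 0.69, without passing (BH adjusted limma p 0.0607).

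Of 11 transcription factors of the pathway and their inhibitor, 7 were higher in late CCH and none in early CCH. Of all tested genes, 27.3% were higher in late and 8.41% in early CCH. The median log2 fold change of the list was -0.83. IRF1, an interferon-induced factor, had means of 1038 ± 413 in early and 3179 ± 485 in late tumors (SD, n = 5 each; log2 fold change -1.70, BH adjusted limma p 0.00224). IRF8, a factor of dendritic cell and B cell development, differed by -1.43 (BH adjusted limma p 0.0150) and NFKBIA, the NF-κB inhibitor that NF-κB itself induces, by -1.30 (0.00141). IRF5 had the highest value, 0.34 (BH adjusted limma p 0.367).

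Of 21 cytokines, chemokines and enzymes that TLRs can induce, 1 was higher in early and 6 in late CCH, the latter a share close to that of the panel. IL10, an anti-inflammatory cytokine, was higher in early CCH (log2 fold change 1.41, BH adjusted limma p 0.0300). The chemokines CCL5 (-2.87, 0.0437), CCL4 (-2.78, 0.00335) and CCL3 (-2.28, 0.0176) were higher in late CCH. Activated T cells can also make these, and all T cell markers tested were higher there too. The part of T cells in these values was not tested. Of 10 sensors other than TLRs, 2 were higher in early CCH, 1 in late CCH and 7 did not pass. Of all tested genes, 8.41% were higher in early and 27.3% in late CCH. CLEC7A (dectin-1, a receptor for fungal glucans, 0.89, BH adjusted limma p 0.0334) and CLEC5A, a myeloid lectin receptor (0.89, 0.0342), were higher in early CCH. NLRC5, which drives MHC class I genes, was higher in late CCH (-1.51, 0.00549).

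**Figure D5:**
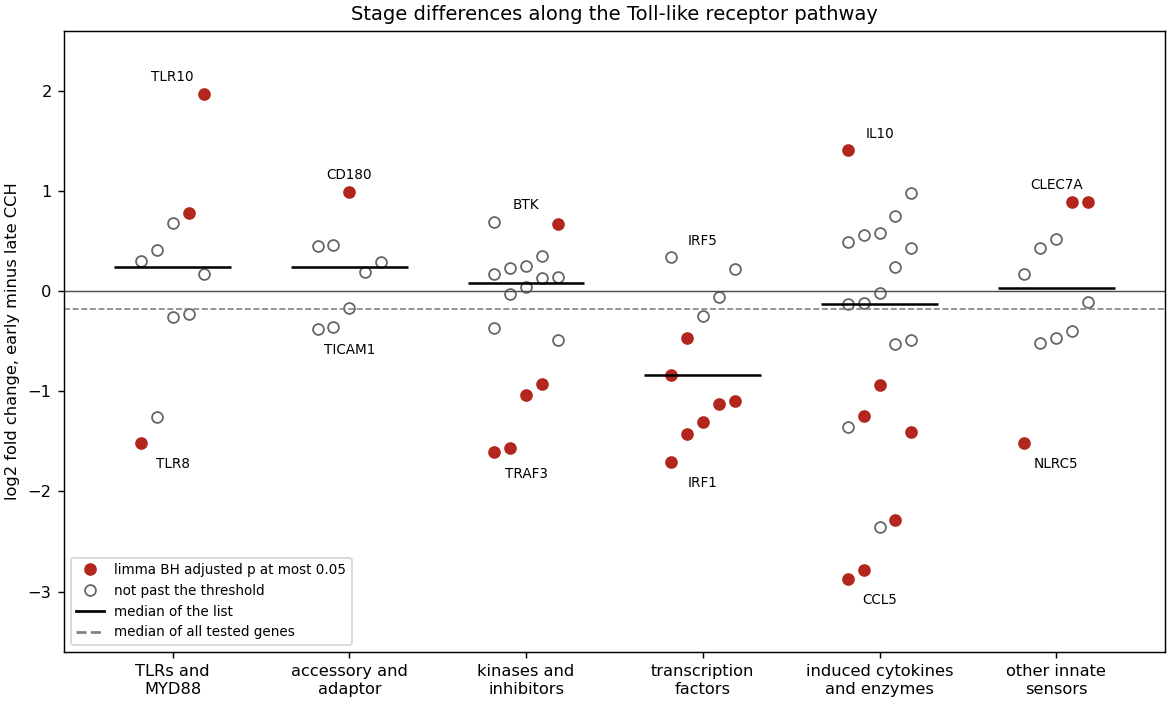
Log2 fold change (early minus late CCH) of each tested gene by role, with filled points for genes past the BH threshold, solid lines for the median of a group and the dashed line for the median of all tested genes; the lowest and highest gene of each group are named. The transcription factors lie lowest, with a median of -0.83, and the receptors with MYD88 have a median of 0.24.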

How the data were processed

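Total RNA of 10 FFPE tumors was hybridized to the nCounter panel. Barcode counts were scaled by the authors in nSolver to positive controls and then to housekeeping genes, and the deposited values are thus a normalized signal on a linear scale, with no background subtraction stated. Gene values were whole multiples of 1 step per tumor for 99.4% to 100% of genes (tolerance 0.0051), and 1 recovered count was worth 0.929 to 1.89 normalized counts. The 6 positive and 8 negative control probes in the same columns are unscaled and were left out of the tests, and the background from the negative probes was multiplied by the step of its tumor. Samples were grouped by title.

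Stages were compared with limma 3.58.1 in R 4.3.3 (lmFit, eBayes with trend) on log2(normalized count + 1), over the 761 genes with a mean of at least 20, with all 10 tumors, no covariates and late CCH as baseline. Fold changes of low genes on this scale depend on the added count and on values below background. P-values were adjusted over all 761 genes. The baseline, BY adjustment and thresholds follow the study; the study's test for counts was not applied, since these values are normalized. Pair ratios were tested by permutation in scipy 1.17.1. The procedure was tested on simulated data. The members, pairs, gene lists and tests were chosen with earlier results of these data known. Every TLR and MYD88 was to be named; from each pathway list up to 3 genes past BH in each direction and the extremes; and for each member above background in at least 5 tumors the 2 genes most like it, of which 1 each for TLR6 and TLR7 is not reported here. Alternatives were other pseudocounts, filters, scalings and variance models, covariates (DV200, macrophage list), male dogs only, leaving out each tumor, a replicate block, a background floor and voom on recovered counts. Samples came from different dogs. Of the RefSeq table, gene symbols and neighbors were used, and no coordinates. Probe sequences were not used here.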

Additional observations from a re-analysis of the deposited data

Results flagged for a closer look

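Among 38 groups of 5 tumors checked, 3 held a tumor whose distance to the next was large against the range of its group, and chance gives about 5% of groups. TLR10 in late 3 was 243.95 normalized counts, while the other late tumors had 55.1 to 90.5. TLR9 in early 5 was 94.74, while the other early tumors had 47.6 to 61.1. TLR5 in late 1 was 19.84, while the other late tumors had 9.95 to 11.9, and all TLR5 values lay below background.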

How the results depend on the processing

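Of the receptors and MYD88, 3 passed BH and 1 passed BY with 2-fold under the deposited scaling. The BH count was 6 under geometric mean scaling, upper quartile scaling and voom on recovered counts (added after seeing the data), 5 under quantile normalization, 1 with DV200 as a covariate (TLR10), 1 in male dogs only (TLR10; 3 early against 4 late) and 0 with the macrophage list as a covariate, where 2 had an unadjusted limma p under 0.05. The BY count was 2 under geometric mean scaling and quantile normalization (TLR6 and TLR10) and 0 with DV200, with the macrophage list and in male dogs only (2 had an unadjusted limma p under 0.05 in each). Leaving out a tumor gave BH counts of 2 to 4 and BY counts of 0 to 1. With weights estimated for each tumor the BH count was 4, with TLR7 added. Replicate numbers did not pair the dogs: residuals of same-numbered tumors correlated at -0.20 to 0.16. With the replicate block, the BY count was 0 (3 had an unadjusted limma p under 0.05) and TLR6 lost its BH call (adjusted limma p 0.0901). TLR8 lost its BH call with DV200, with the macrophage list, in male dogs only (-1.87, adjusted limma p 0.0531) and under quantile normalization (-0.96, adjusted limma p 0.112). TLR6 also lost it in male dogs only (0.76, adjusted limma p 0.168) and with the macrophage list (1.11, adjusted limma p 0.0597). DV200 nearly followed stage, so that RNA quality and stage cannot be told apart in that fit. Calls over all genes fell as well, from 272 to 45 with DV200 and to 133 in male dogs only. TLR4 turned positive under geometric mean (0.13), upper quartile (0.077) and quantile (0.20) scaling and with the macrophage list (0.50), and ranged from -0.57 to 0.072 without single tumors. TLR9 turned positive under the same scalings (0.15, 0.10 and 0.27) and voom on recovered counts (0.051), and TLR2 turned to -0.54 with DV200. The causes were not tested.

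The pathway count of 23 became 4 with DV200, 7 with the macrophage list and 11 in male dogs only, and 34, 33, 34 and 30 under geometric mean, upper quartile and quantile scaling and voom on recovered counts. The pair count, 2 before adjustment, was 0 in male dogs only, where 3 against 4 allow no exact permutation p below 0.0571; the differences there were 2.59 for TLR7 to TLR8 and 1.20 for TLR7 to TLR9. The TLR1 to TLR2 difference was -0.066 under quantile normalization and -0.10 to 0.37 without single tumors. The TLR4 to CD14 difference was -0.19 in male dogs only and -0.076 to 0.30 without single tumors. Over all genes, 272 passed BH (64 higher in early, 208 in late), against 45 with DV200, 71 with the macrophage list and 133 in male dogs only; the split was 193 to 151, 190 to 156 and 180 to 144 under the geometric mean, upper quartile and quantile scalings and 160 to 162 with voom on recovered counts. All-gene BY calls were 85, against 0 with either covariate and in male dogs only and 1 with the block, and they were 39 without late 1, 41 without late 4, 47 without early 5, 48 without late 2 and 52 without late 5. The edgeR test was not run, since the deposited columns were taken as a normalized signal. This was a choice, as voom was run in its place on the recovered gene counts of the same tumors. TLR5, TLR3 and TLR9 lay near background, which limits what depth can show for them.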
